A study of Mus musculus with 4 samples.

Results

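A set of 10 genes that prepare protein antigens for MHC class II molecules was followed in splenic CD4+ dendritic cells 1 h after injection of sheep red blood cells (SRBC) or phosphate-buffered saline (PBS). They were 7 cathepsins (Ctss, Ctsl, Ctsb, Ctsd, Ctsh, Ctsz and Ctsc), the protease legumain (Lgmn), the lysosomal thiol reductase GILT (Ifi30) and the protease inhibitor cystatin C (Cst3). Members were taken by gene name, and each of the 10 matched 1 locus of its own among 23657 named loci. All 10 passed the filter on low values, which asked for 1 FPKM (fragments normalised for transcript length and library size) or more in 2 or more of the 4 libraries, as did 11020 named loci in all.

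Antigen taken up by a dendritic cell is unfolded, reduced and cut in acidic endosomes and lysosomes before its peptides are loaded on class II. Endopeptidases such as legumain, cathepsin S, cathepsin L and cathepsin D open the protein, exopeptidases such as cathepsins B, H, C and Z trim its ends, and GILT breaks disulfide bonds. Some of these proteases also degrade the invariant chain that blocks the class II groove, and cystatins hold the cysteine cathepsins in check.

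The libraries came from C57BL/6 mice, all of them heterozygous for Gpr183, the receptor for oxysterols that positions these cells in the spleen. There were 2 libraries after PBS (100 uL) and 2 after SRBC (1000000000 cells), each from dendritic cells sorted as CD11c+, I-Ab+, CD4+ and CD8-. The protocol describes 500000 cells per group and 100 ng of RNA for library preparation. The labels do not tell whether both libraries of a treatment are from different animals. The p-values therefore rest on the spread among these 4 libraries, part or all of which may be technical.

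Itgax (CD11c) measured 196 ± 22.6 FPKM after PBS and 238 ± 21.9 after SRBC (mean ± SD, n = 2 libraries in each group here and below), Cd4 87.5 ± 1.25 and 86.1 ± 14.5, and Cd8a 1.91 ± 1.009 and 2.44 ± 0.0238. Summed FPKM ran from 377167 to 410321 in the PBS libraries and from 509007 to 558016 in the SRBC libraries, so the scale between the groups is itself uncertain. Xist stood at 0.210 and 0.327 FPKM after PBS and at 339 and 306 after SRBC, and 4 Y-linked genes summed to 73.3 and 93.8 after PBS and to 0.177 and 0.0629 after SRBC. The sex of the mice therefore cannot be told apart from the treatment in any comparison below. Of 8 markers of the sorted CD4 dendritic cells 3 were called higher and 1 lower. The higher ones were Irf4 (log2 fold change 2.14), H2-Ab1 (1.00) and Dtx1 (0.77), and the lower one was Clec4a4 (-1.18). Irf4, Dtx1 and Clec4a4 were named after their values were seen. Of the markers of other cells, those called higher and lower were 0 and 2 of 5 tested for CD8 dendritic cells, 1 and 1 of 13 for macrophages and monocytes, 3 and 0 of 6 for neutrophils and 0 and 0 of 6 for B cells. They were 1 and 0 of 3 for T cells, 0 and 1 of 4 for NK cells, 0 and 0 of 5 for plasmacytoid dendritic cells and 3 and 0 of 4 for erythroid cells. Of all tested loci 13.5% were called higher and 6.2% lower. In bulk samples fewer cells of a type and less RNA per cell cannot be told apart.

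Promoter windows were available for 8 of the 10 genes, as 9 windows of 300 bases from RefSeq (GRCm38.p6), each from 250 bases before to 50 after an annotated gene start. Those of Lgmn, Ctsz, Ifi30 and Ctsd, which were called higher after SRBC, are shown 5′ to 3′. Ctsb, the other gene called higher, and Ctsh had no entry. Capitals mark the E-box CACGTG, a palindrome bound by the MiT/TFE factors that control lysosomal genes.
Lgmn (chr12:102439679-102439978, minus strand): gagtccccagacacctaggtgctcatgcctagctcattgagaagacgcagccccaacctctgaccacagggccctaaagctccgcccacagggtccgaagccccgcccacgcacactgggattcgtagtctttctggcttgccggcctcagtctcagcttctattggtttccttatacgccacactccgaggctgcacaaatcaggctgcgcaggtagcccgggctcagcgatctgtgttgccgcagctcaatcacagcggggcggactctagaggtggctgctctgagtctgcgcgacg
Lgmn (chr12:102439043-102439342, minus strand): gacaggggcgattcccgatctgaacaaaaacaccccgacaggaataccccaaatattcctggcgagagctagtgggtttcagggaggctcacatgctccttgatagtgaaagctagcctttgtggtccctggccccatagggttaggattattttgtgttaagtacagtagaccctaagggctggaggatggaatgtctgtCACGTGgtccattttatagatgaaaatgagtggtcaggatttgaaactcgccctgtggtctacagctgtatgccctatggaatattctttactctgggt
Ctsz (chr2:174438990-174439289, minus strand): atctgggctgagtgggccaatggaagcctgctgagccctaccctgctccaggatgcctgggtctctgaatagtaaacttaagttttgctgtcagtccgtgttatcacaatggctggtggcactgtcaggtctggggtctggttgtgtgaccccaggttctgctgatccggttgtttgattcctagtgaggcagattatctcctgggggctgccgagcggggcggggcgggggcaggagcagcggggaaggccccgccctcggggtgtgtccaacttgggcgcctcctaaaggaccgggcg
Ifi30 (chr8:70766614-70766913, minus strand): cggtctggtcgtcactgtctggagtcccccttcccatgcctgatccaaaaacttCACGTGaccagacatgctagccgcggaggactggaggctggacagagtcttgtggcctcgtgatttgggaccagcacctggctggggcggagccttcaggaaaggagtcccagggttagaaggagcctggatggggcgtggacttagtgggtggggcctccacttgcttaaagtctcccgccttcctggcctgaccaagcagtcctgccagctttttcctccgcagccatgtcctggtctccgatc
Ctsd (chr7:142387778-142388077, minus strand): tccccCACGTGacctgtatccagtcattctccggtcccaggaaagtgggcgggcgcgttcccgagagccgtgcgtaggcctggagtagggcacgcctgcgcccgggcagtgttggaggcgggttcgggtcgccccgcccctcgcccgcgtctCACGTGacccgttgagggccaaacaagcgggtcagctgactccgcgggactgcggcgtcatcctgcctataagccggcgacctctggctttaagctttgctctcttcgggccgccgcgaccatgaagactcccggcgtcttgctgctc

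The E-box stood in 4 of the 9 windows, and in 2349 of all 32851 RefSeq windows (7.15%). The window of Ctsd held 2 copies, beginning 245 and 98 bases before the gene start. In Ifi30 it began 196 bases before the start, and in Lgmn it lay 49 bases before the second start and not in the window of the first. The Ctsl window also held it, 236 bases before the start, although Ctsl was not called higher. The E-box was absent from the window of Ctsz, which was called higher, and from those of Ctss, Ctsc and Cst3. The consensus of NF-kB was found in 2 of the 9 windows, that of Ifi30 and the second of Lgmn, and in 4.51% of all windows. An interferon element, GAAA repeated after a gap of 2 bases, was found in 1, that of Ctss, where GAAACCGAAA began 21 bases before the start, and in 3.44% of all windows. Also searched were the PU.1 core GAGGAAGT, the GAS motif TTCNNNGAA, the AP-1 motif TGANTCA (N is any base) and the CCAAT box. The PU.1 core was found in 2 of the 9 windows, those of Ctss and Ctsc, and in 3.20% of all windows. GAS was found in 1, that of Ctsc (8.30% of all windows), and AP-1 in 0 (7.81%). The CCAAT box was found in 2, that of Ctsz and the first of Lgmn, and in 37.4% of all windows. Both strands were searched, and a match is a description of the letters and not a site.

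After SRBC 5 of the 10 genes were called higher and 0 lower (limma on log2(FPKM + 1), Benjamini-Hochberg adjusted p under 0.05 over 11020 loci): Lgmn, Ctsz, Ifi30, Ctsb and Ctsd. The other 5, Ctss, Cst3, Ctsl, Ctsc and Ctsh, were not called. Of all tested loci 13.5% were called higher and 6.2% lower, and of the 2204 loci in the highest 20% by level, where 9 of the 10 genes lie, 31.3% were higher and 3.63% lower. Rescaling the libraries moved the balance of all calls from 68.5% higher to 58.3% with median-of-ratios, 49.9% with quantile, 41.9% with upper-quartile and 27.6% with TPM scaling, and the median of all tested loci from 0.07 to -0.014, -0.039, -0.14 and -0.33. The 5 called genes stayed above 0 under each of these. The median log2 fold change was 0.71 over the 10 genes, 0.07 over all tested loci and 0.41 over the highest 20% by level. In the authors' deposited table the q-value of control against immunized libraries was 0.00101, the smallest in that table and shared by 616 named loci, for the same 5 genes, and from 0.30 to 0.97 for the others, where 12.5% of tested loci had a q under 0.05.

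**Figure D1:**
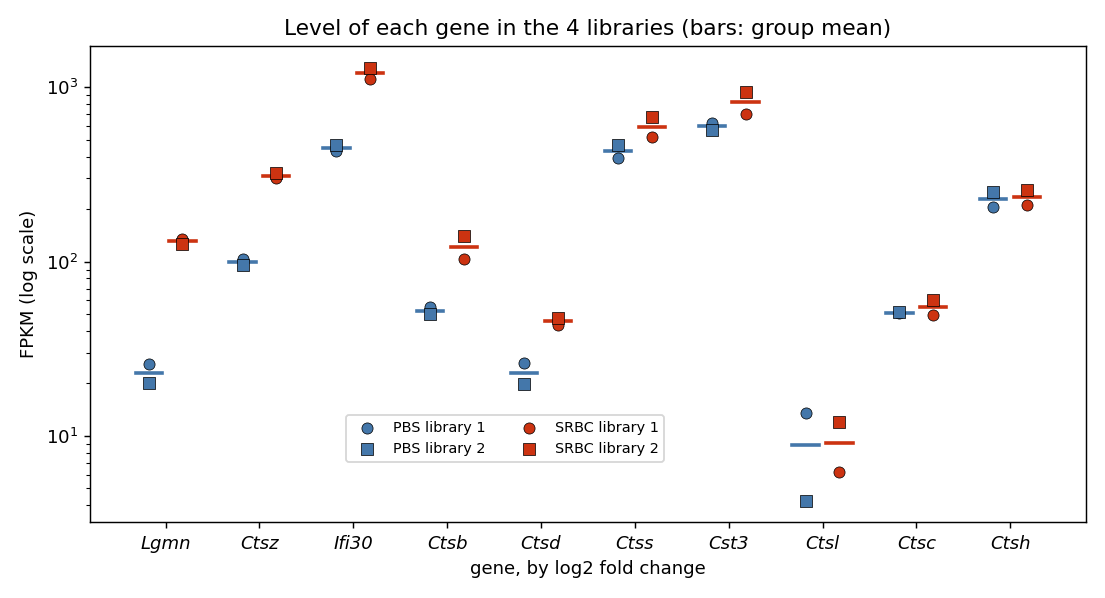
FPKM of the 10 genes in each library on a log axis, in order of log2 fold change, with circles for library 1 and squares for library 2 of each group and bars for the group means. The SRBC points of Lgmn, Ctsz, Ifi30, Ctsb and Ctsd lie above both PBS points, and the Ctsl points of both groups cross, from 4.25 to 13.6 after PBS and from 6.21 to 12.1 after SRBC.

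Lgmn encodes legumain, an endopeptidase that cuts after asparagine and makes early cuts in antigens and in the invariant chain. It lies on chromosome 12, from 102394084 to 102439813 on the minus strand (GRCm38, GENCODE M21). Its values were 25.8 and 19.9997 FPKM in the PBS libraries and 135 and 126 in the SRBC libraries. The groups did not overlap, and the lowest SRBC library stood 4.89-fold above the highest PBS library. Lgmn rose 5.70-fold (mean 22.9 ± 4.11 FPKM, then 130.5 ± 6.13), a log2 fold change of 2.47 with a standard error of 0.22 (limma, adjusted p = 4.5e-10). Only 85 of the 11020 tested loci had a higher log2 fold change. Its place among all 30043 loci of the library went from 1900 and 2883 after PBS to 481 and 578 after SRBC, counted from the most abundant.

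Cathepsin Z, a carboxypeptidase that removes single residues from the C-terminal end, is encoded by Ctsz on chromosome 2, from 174427493 to 174439039. Its FPKM was 103 and 95.9 after PBS and 301 and 321 after SRBC. Replicates lay close together in both groups, which were well apart. Ctsz rose 3.12-fold (mean 99.6 ± 5.25 FPKM, then 311 ± 13.8), a log2 fold change of 1.63 with a standard error of 0.22 (limma, adjusted p = 1.3e-06).

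Cathepsin B, which works both as an endopeptidase and as a dipeptidase of the C-terminal end, is encoded by Ctsb on chromosome 14, from 63122462 to 63145923. Its level was 54.7 and 49.95 FPKM after PBS and 104 and 139.5 after SRBC, with SRBC library 2 the highest of the 4. It rose 2.32-fold (mean 52.3 ± 3.35 FPKM, then 122 ± 25.4), a log2 fold change of 1.19 with a standard error of 0.22 (limma, adjusted p = 0.00018). The gene shares 774 of its 6051 annotated exonic bases with Fdft1 on the other strand, and strand was not given, so reads of the shared part cannot be assigned. The locus of Fdft1 itself measured 6.57 and 6.58 FPKM after PBS and 8.26 and 11.4 after SRBC.

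Ctsd encodes cathepsin D, the aspartic protease among these enzymes, on chromosome 7 from 142375911 to 142388038. It measured 26.03 and 19.9 FPKM after PBS and 43.3 and 47.7 after SRBC, again without overlap. It rose 1.98-fold (mean 22.9 ± 4.37 FPKM, then 45.5 ± 3.11), a log2 fold change of 0.97 with a standard error of 0.23 (limma, adjusted p = 0.0021), the smallest change among the 5 called genes. The Ctsd call was lost after quantile normalization (log2 fold change 0.61, adjusted p = 0.10), with rescaling to TPM (0.55, adjusted p = 0.094) and without SRBC library 2 (0.90, adjusted p = 0.052). GENCODE M21 also places the gene Gm49369 over Ctsd on the same strand, with 808 of the 2351 exonic bases of Ctsd in common.

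Ifi30 encodes GILT, the reductase that opens disulfide bonds of antigens in the lysosome and is known as an interferon-gamma inducible gene. It lies on chromosome 8, from 70762774 to 70766663. Its FPKM was 429.9 and 468 after PBS and 1112 and 1298 after SRBC. Every SRBC value was at least 2.38-fold above every PBS value. It rose 2.68-fold (mean 449 ± 27.1 FPKM, then 1205 ± 131), a log2 fold change of 1.42 with a standard error of 0.25 (limma, adjusted p = 9.7e-05). Of the 10 genes it was the second most abundant after PBS and the most abundant after SRBC, where it ranked 57 and 66 among all loci.

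Among the genes that were not called, Ctss and Cst3 were abundant and their groups did not overlap. Ctss (chromosome 3, 95526786 to 95556403) encodes cathepsin S, which completes invariant chain degradation in mouse dendritic cells and B cells. Its PBS libraries held 393 and 467 FPKM and its SRBC libraries 517 and 673, a 1.38-fold difference of the means (log2 fold change 0.46, 95% interval -0.046 to 0.97, limma adjusted p = 0.20). Cst3 (chromosome 2, 148871722 to 148875692) encodes cystatin C, a secreted inhibitor of cysteine cathepsins that dendritic cells make in large amounts. Its FPKM was 627 and 569.65 after PBS and 701 and 937 after SRBC, a 1.37-fold difference (log2 fold change 0.44, 95% interval -0.085 to 0.96, limma adjusted p = 0.24). Without overlap of the groups stood 7 of the 10 genes, all higher after SRBC, as did 34.3% of all tested loci and 63.7% of the loci in the highest 20% by level.

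The exopeptidase genes Ctsh and Ctsc had overlapping groups. Ctsh (chromosome 9, 90054152 to 90076089), which encodes the aminopeptidase cathepsin H, stood at 206 and 251 FPKM in the PBS libraries and 212 and 257 in the SRBC libraries (log2 fold change 0.036, 95% interval -0.43 to 0.51, limma adjusted p = 0.93). Ctsc (chromosome 7, 88278085 to 88310888), which encodes the dipeptidyl peptidase that activates granule proteases of killer cells and neutrophils, stood at 50.5 and 51.2 in the former and 49.1 and 60.3 in the latter (log2 fold change 0.096, 95% interval -0.35 to 0.54, limma adjusted p = 0.81). Ctsh also shares a stretch of 354 bases at 91.0% identity with Gm5398, so some of its reads may be split between the copies. Ctsh was called lower after quantile normalization (log2 fold change -0.55, adjusted p = 0.040), and both estimates turned negative under every rescaling of the libraries that was run.

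Ctsl (chromosome 13, 64359337 to 64370890) encodes cathepsin L, which takes the part of cathepsin S in the mouse thymic cortex. It was the least abundant of the 10 genes, at 13.6 and 4.25 FPKM after PBS and 6.21 and 12.1 after SRBC. Within the PBS group the libraries differed 3.19-fold, more than the group means did (8.90 ± 6.58 and 9.13 ± 4.14, log2 fold change 0.15, 95% interval -0.53 to 0.83, limma adjusted p = 0.80). Without PBS library 1 it was called higher (log2 fold change 0.88, adjusted p = 0.015), and without PBS library 2 its log2 fold change was -0.59. The 5 markers of plasmacytoid dendritic cells summed to 139.8 and 51.9 FPKM after PBS and 60.9 and 101 after SRBC, the same order of libraries as Ctsl. The T cell markers had that order too, at 19.0045 and 7.999 FPKM, then 13.8 and 18.9. Within each group the markers of neutrophils (64.5 and 6.54, then 43.1 and 98.1), B cells, erythroid cells and macrophages and monocytes were also ordered as Ctsl was. In the PBS libraries those of NK cells (99.6 and 118) and CD8 dendritic cells (89.9 and 98.5) were ordered the other way. The part of any of these cells in the Ctsl values was not tested. In GENCODE M21 the antisense gene Gm47123 covers 1742 of the 6489 exonic bases of Ctsl.

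**Figure D2:**
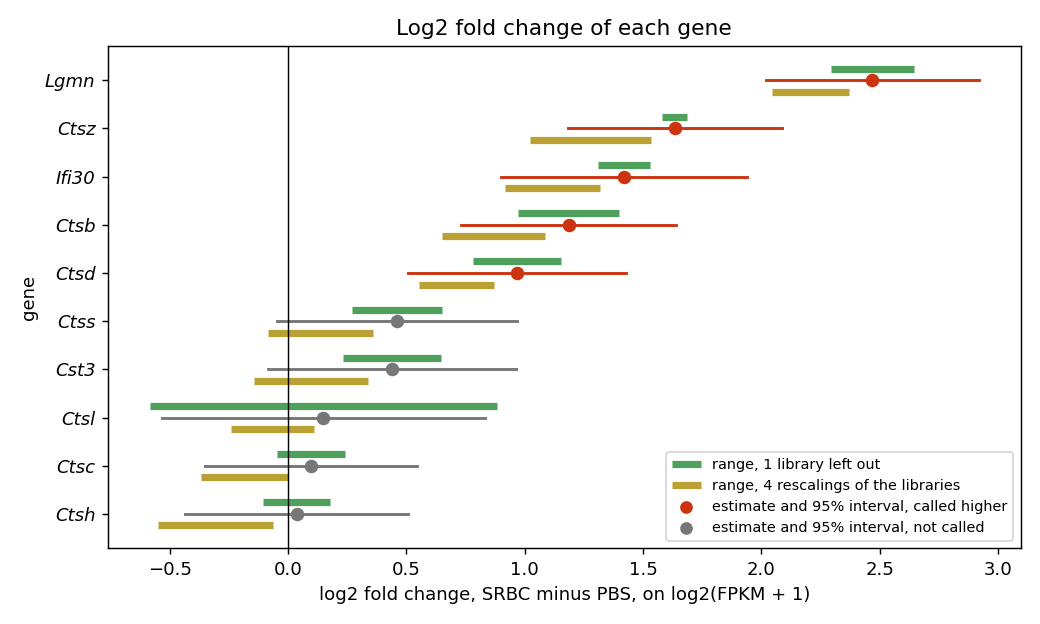
Log2 fold change of each gene, SRBC minus PBS on log2(FPKM + 1), with its 95% interval, the range over the 4 fits that leave out a library and the range over 4 rescalings of the libraries. Lgmn, Ctsz, Ifi30, Ctsb and Ctsd stay above 0 throughout. The 95% interval of Ctsd begins at 0.51 and its range over the rescalings at 0.55. The left-out-library range of Ctsl runs from -0.59 to 0.88.

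In the PBS libraries the genes ranked, from the most abundant by mean FPKM, Cst3, Ifi30, Ctss, Ctsh, Ctsz, Ctsb, Ctsc, Ctsd, Lgmn and Ctsl. The library values of 3 neighbouring pairs overlapped: Ifi30 with Ctss, Ctsb with Ctsc, and Ctsd with Lgmn. After SRBC the order was Ifi30, Cst3, Ctss, Ctsz, Ctsh, Lgmn, Ctsb, Ctsc, Ctsd and Ctsl, and only Lgmn and Ctsb overlapped among neighbours. Lgmn moved from the ninth to the sixth place and Ctsz passed Ctsh.

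The make-up of the protease transcripts differed between the groups on a scale that a single scaling factor per library cannot change. As shares of the summed FPKM of the 8 protease genes in a library, Lgmn took 2.96% and 2.08% after PBS and 9.85% and 7.71% after SRBC. Ctsz took 11.8% and 9.99%, then 22.0% and 19.6%. Both shares were larger in every SRBC library than in any PBS library. Ctsh went the other way, with 23.6% and 26.2%, then 15.5% and 15.7%, and Ctsc had 5.79% and 5.34%, then 3.59% and 3.69%. Ctss remained the most abundant, at 44.99% and 48.7%, then 37.8% and 41.1%, so that Ctss and Ctsh together held 68.6% and 74.9% of the total after PBS and 53.3% and 56.8% after SRBC. The share of Ctsb was 6.26% and 5.21%, then 7.57% and 8.53%, and that of Ctsd overlapped between groups, at 2.98% and 2.07%, then 3.16% and 2.92%. The sum itself was 873 and 959.6 FPKM after PBS and 1368 and 1636 after SRBC. These shares are a description without a test, and an exact permutation test of 2 libraries against 2 cannot go below p = 0.33.

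**Figure D3:**
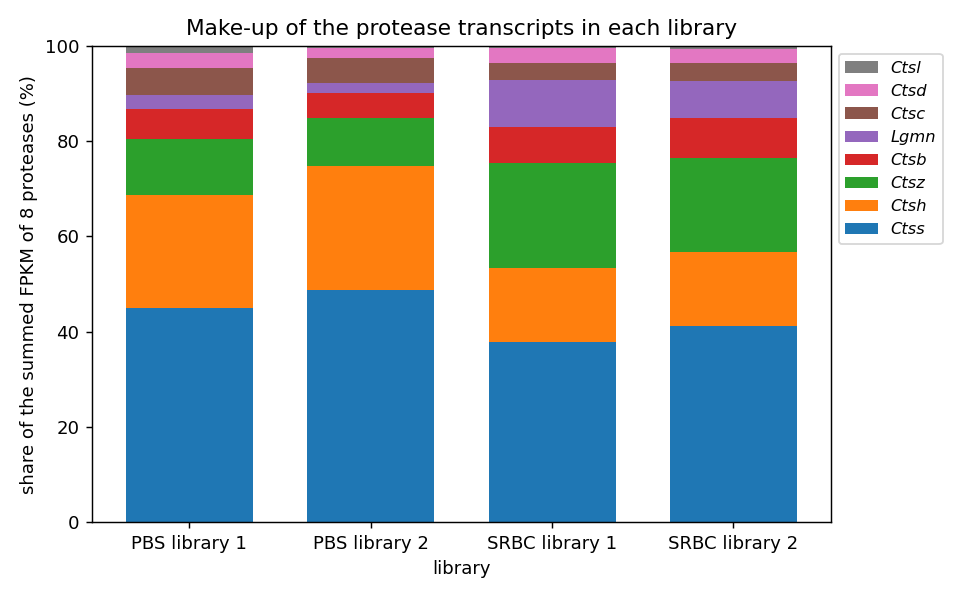
Stacked bars of the share of each of the 8 protease genes in their summed FPKM, in percent, for the 4 libraries. The Lgmn and Ctsz bands are wider in both SRBC libraries (Lgmn 9.85% and 7.71%, against 2.96% and 2.08%) and the Ctsh band is narrower (15.5% and 15.7%, against 23.6% and 26.2%).

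Relative to the inhibitor gene Cst3 in the same library, the level of Lgmn was 0.0412 and 0.0351 after PBS and 0.192 and 0.135 after SRBC. That of Ctsz was 0.165 and 0.168, then 0.430 and 0.343. Ifi30 lay below Cst3 in both PBS libraries (0.686 and 0.822) and above it in both SRBC libraries (1.59 and 1.39). For Ctsb the ratio was 0.0872 and 0.0877, then 0.148 and 0.149, and for Ctsd 0.0415 and 0.0349, then 0.0617 and 0.0509. The ratio of Ctss was 0.627 and 0.820 after PBS and 0.738 and 0.718 after SRBC, with the groups overlapping. Ratios of Ctsh (0.329 and 0.441, then 0.303 and 0.274) and Ctsc (0.0806 and 0.0899, then 0.0701 and 0.0644) were lower in both SRBC libraries. All 6 cysteine cathepsins together stood at 1.31 and 1.61 times Cst3 after PBS and at 1.70 and 1.56 times after SRBC. A ratio within a library shows unequal change and not that Cst3 stayed at 1 level.

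**Figure D4:**
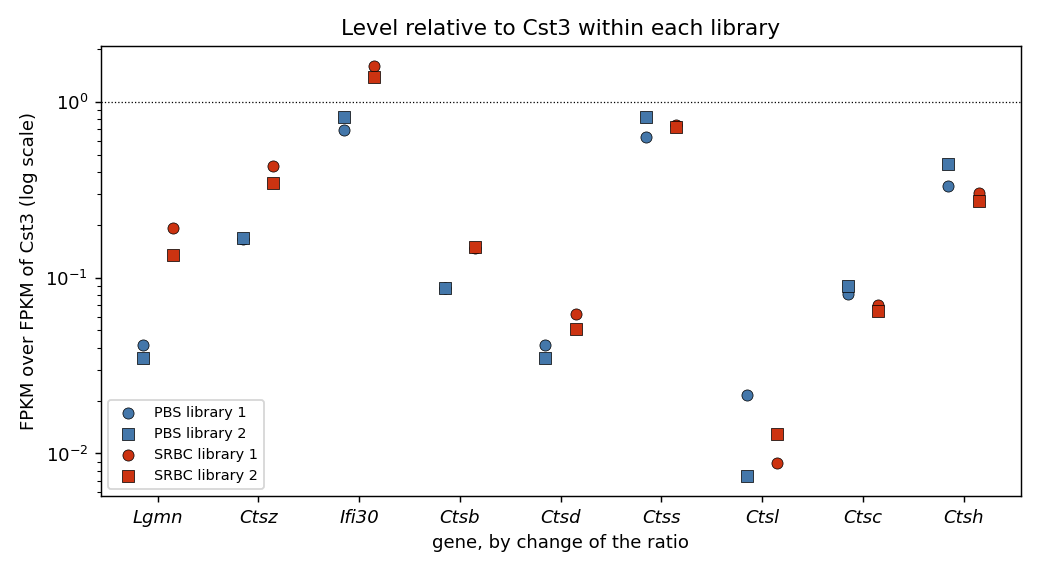
FPKM of each gene divided by the FPKM of Cst3 in the same library, on a log axis, for the 4 libraries. Lgmn, Ctsz, Ifi30, Ctsb and Ctsd have both SRBC points above both PBS points, Ifi30 crosses the dotted line at 1 (0.686 and 0.822, then 1.59 and 1.39), and the Ctss points of both groups mix.

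Other genes of the pathway were counted in 6 lists, beside 13.5% of all tested loci called higher and 6.2% lower. Among other cysteine protease inhibitors 2 of 3 tested loci were higher and 0 lower. Cstb, the cytosolic inhibitor stefin B, measured 29.1 and 24.1 FPKM after PBS and 106 and 125 after SRBC, and rose 4.34-fold (log2 fold change 2.08 ± 0.22 SE, limma adjusted p = 1.2e-08). Cst7, which encodes the lysosomal inhibitor cystatin F, rose (1.95 and 1.29 FPKM, then 8.33 and 13.2) by a log2 fold change of 2.15, with a standard error of 0.29 and a limma adjusted p of 9.6e-07. The third, Stfa2l1, lay near the filter (log2 fold change 0.15), and 8 of the 12 listed inhibitors were at 0 in every library. Other cathepsins had 0 of 4 tested loci called in either direction: Ctsa measured 86.2 ± 0.503 and then 114 ± 11.3, Ctse 9.50 ± 6.997 and 12.4 ± 4.27, and Ctso 21.8 ± 8.79 and 13.96 ± 1.34. Ctso was called lower with upper-quartile (adjusted p = 0.040) and TPM scaling (adjusted p = 0.025) and without PBS library 1 (log2 fold change -0.96, adjusted p = 0.0046), but was at -0.15 without PBS library 2. Ctse was called higher without PBS library 2 (1.23, adjusted p = 2.4e-04) and was at -0.24 without PBS library 1.

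For other lysosomal hydrolases 10 of 36 tested loci were higher and 3 lower, beside 13.5% and 6.2% of all tested loci. The median log2 fold change of the list was 0.0018. Higher were Acp5, the tartrate-resistant acid phosphatase (73.3 ± 10.1 to 245 ± 29.2 FPKM, 3.34-fold), the serine carboxypeptidase gene Scpep1 (30.8 ± 4.59 to 73.1 ± 13.2, 2.37-fold) and Gaa, the acid alpha-glucosidase (9.37 ± 0.809 to 21.0 ± 0.0346, 2.24-fold). Their limma adjusted p was 5.5e-07, 0.00015 and 0.0011, and the Gaa call was lost with TPM (log2 fold change 0.70, adjusted p = 0.059) and with no filter on low values. The 3 lower loci, named after their values were seen, were Sgsh (log2 fold change -1.15), Manba (-0.92) and Asah1 (-0.70), which degrade heparan sulfate, mannose-linked sugars and ceramide. The counts depended on scaling, with 6 higher and 10 lower after quantile normalization and 2 and 8 with TPM.

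The mannose 6-phosphate sorting genes carry new enzymes to the lysosome. Of these 1 of 8 tested loci was higher and 0 lower, beside 13.5% and 6.2% of all tested loci. The higher locus was M6pr, the cation-dependent receptor, at 114 and 112 FPKM after PBS and 268 and 326 after SRBC (2.63-fold, log2 fold change 1.38 ± 0.22 SE, limma adjusted p = 2.4e-05). The adaptor gene Gga3 (20.03 ± 1.07, then 26.4 ± 0.173) and the sorting receptor gene Sort1 (15.1 ± 1.87, then 12.4 ± 0.610) did not pass. Among aminopeptidases and prolyl peptidases 1 of 8 was higher and 0 lower: Dpp7, a dipeptidyl peptidase of intracellular vesicles, went from 6.02 and 3.38 to 21.2 and 23.3 FPKM (log2 fold change 2.07 ± 0.26 SE, limma adjusted p = 3.8e-07). Tpp2 (13.8 ± 2.88, then 20.7 ± 2.54) and Npepps (19.1 ± 2.53, then 24.8 ± 0.648), peptidases of the cytosol, did not pass, although Tpp2 did without PBS library 2 (adjusted p = 0.034) and with the replicate block (0.047).

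Of the 4 MiT/TFE transcription factor genes 2 were higher and 0 lower, beside 13.5% and 6.2% of all tested loci. Tfe3 rose 2.04-fold (mean 13.9 ± 0.266 FPKM, then 28.2 ± 1.86), a log2 fold change of 0.97 with a standard error of 0.23 (limma, adjusted p = 0.0023), and Tfec, at a low level, by a log2 fold change of 1.05 with a standard error of 0.30 (1.08 ± 0.276, then 3.36 ± 1.04, limma adjusted p = 0.010). Tfeb measured 35.3 ± 3.65 and 52.0 ± 0.146 (log2 fold change 0.55, limma adjusted p = 0.074, or 0.037 with the replicate number as a block). Apart from the fit with no filter on low values, the Tfe3 call was lost with TPM (adjusted p = 0.098) and without SRBC library 2 (adjusted p = 0.075), and the Tfec call with upper-quartile or TPM rescaling (adjusted p = 0.053 and 0.092) and without SRBC library 1 (adjusted p = 0.21).

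**Figure D5:**
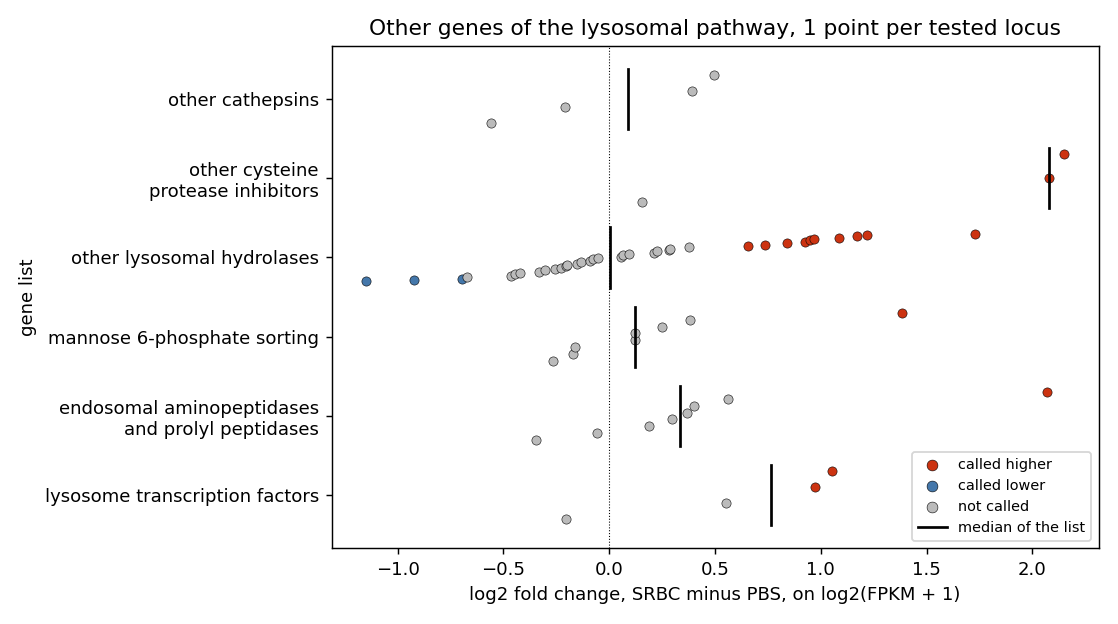
Log2 fold change, SRBC minus PBS on log2(FPKM + 1), of every tested locus in the 6 pathway lists, with 1 point per locus and a black line at the median of each list. Cst7 (2.15), Cstb (2.08), Dpp7 (2.07) and Acp5 (1.73) lie farthest to the right, and the lysosomal hydrolases spread to both sides of 0 around a median of 0.0018.

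The genes of class II itself, on which these enzymes act, had H2-Ab1 at 4440 and 3905 FPKM after PBS and 7751 and 8908 after SRBC (log2 fold change 1.00, limma adjusted p = 0.042) and H2-Aa at 7605 and 7944, then 12723 and 15882 (0.87, adjusted p = 0.12). H2-Aa passed with the stricter filter (limma adjusted p = 0.026), without the variance trend (0.019) and with robust variance (0.0024). Its log2 fold change was 1.03 without SRBC library 1, 0.71 without SRBC library 2 and 0 after quantile normalization. That normalization gives loci of equal rank the same value in every library, so a 0 there reflects rank and not the size of a change. The H2-Ab1 call was lost with median-of-ratios, quantile and TPM scaling, without PBS library 1, without PBS library 2, with the replicate number as a block (adjusted p = 0.072) and with no filter on low values. Its q-value in the authors' deposited table was 0.93. The invariant chain gene Cd74 measured 9573 and 10719, then 13958 and 19120 (0.69, adjusted p = 0.25), and passed with robust variance (0.022) and without SRBC library 1 (4.3e-04). The peptide-loading gene H2-DMa measured 458 and 552, then 381 and 505 (-0.20, adjusted p = 0.63). H2-DMa was called lower after quantile normalization (-0.84, limma adjusted p = 0.010) and with TPM scaling (-0.63, limma adjusted p = 0.040).

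Macrophages carry the same enzymes, so their markers are given beside these results. The 16 matched macrophage and monocyte markers, none of which was at 0 in every library, summed to 436 and 424 FPKM after PBS and 625 and 775 after SRBC. Most of that difference lay in the locus named for Cd68, Eif4a1 and Senp3 together (log2 fold change 1.02, limma adjusted p = 0.0021), whose reads cannot be assigned to Cd68. Without it the other 15 summed to 204 and 164 after PBS and 175 and 225 after SRBC, so the groups overlapped. For the top marker of the other cell types by level, the log2 fold change was 2.49 for the hemoglobin locus of Hbb-b1 and Hbb-b2 (3.50 without PBS library 1 and 1.48 without PBS library 2), 1.46 for S100a9 (neutrophils; -0.15 without PBS library 2), 0.82 for Cd5 (T cells), -0.048 for Bst2 (plasmacytoid dendritic cells), -0.48 for Cd79b (B cells), -0.68 for Batf3 (CD8 dendritic cells) and -0.82 for Klrd1 (NK cells). The call of S100a9 was also lost without SRBC library 2, under every rescaling and with the replicate block, that of Cd5 without either SRBC library, that of Batf3 without PBS library 2 or either SRBC library, and that of Klrd1 without PBS library 2 or SRBC library 1. The Hbb-b1 call was lost with quantile normalization (limma adjusted p = 0.077) and robust variance (0.31), and that of the Cd68 locus with quantile normalization (0.079). The Cd68 call was also lost without PBS library 1 (log2 fold change 0.93). Without the variance trend the calls of S100a9 (limma adjusted p = 0.084) and Batf3 (0.066) were lost. The S100a9 call was lost as well with robust variance (limma adjusted p = 0.67) and a pseudocount of 0.01 (0.057). That of Cd5 was also lost with upper-quartile (limma adjusted p = 0.061) and TPM scaling (0.25). With no filter on low values all these marker calls were lost. The part of these cells in the levels of the 10 genes was not tested.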

How the data were processed

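The deposited values are FPKM for each locus in each library, per the file headers. The authors also deposited q-values, that is adjusted p-values, from cuffdiff, per the deposited sheet that explains the columns. The submitters' processing notes name TopHat2 2.0.8b, Cufflinks 2.1.1, CASAVA and the build mm10. Not given in the sources used here are the annotation, the scaling of libraries, strand and read totals. Whole fragments could not be recovered from the low values of genes with 1 transcript, so depth is unknown and no counting interval is given. At the step size that gave the largest share, 25.3% to 32.5% of values lay within 0.1 of a whole step. Without steps 20% would do so at a step size fixed in advance, and more at the best of many.

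The immunized columns carry the names of their samples. The control columns were taken as the PBS samples, whose source label says control and whose titles carry the same numbers. The deposited sheet describes them as cells of Gpr183 heterozygous mice, in a comparison of PBS with SRBC. The 11020 named loci that reached 1 FPKM in 2 or more libraries entered limma 3.58.1 (R 4.3.3; lmFit, then eBayes with its trend option) as log2(FPKM + 1). The two-sided contrast was SRBC minus PBS, 2 libraries against 2, without covariates, and p-values were adjusted by Benjamini-Hochberg with a threshold of 0.05. The log2(FPKM + 1) scale understates changes of scarce transcripts. Residual degrees of freedom were 2 and prior ones 28.7, and the median standard error was 0.26. A symbol with several loci was represented by that with the highest mean.

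The 10 members and all lists were chosen with earlier results of these data known. Named genes are the members, up to 3 genes of each pathway list with the smallest p, class II genes, sort genes and the top marker by level of the other cell types; others are said to have been named after their values were seen. Coordinates are from GENCODE M21 (GRCm38, also called mm10), promoters from RefSeq (GRCm38.p6). Copies were sought with BLAST 2.17.0. Alternatives changed the pseudocount (0.1, 0.01), the filter (none, or a minimum of 5), the scaling of libraries, the variance model, the replicate block and the libraries included.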

Additional observations from a re-analysis of the deposited data

How the results depend on the processing

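Lgmn, Ctsz, Ifi30 and Ctsb were called higher in 14 of 15 alternatives each and Ctsd in 11, and all 5 kept their direction in all of them. The exception shared by all 5 was the fit with no filter on low values, where 23657 loci were tested, 0 of the 10 genes were called, 0 of each pathway list, and 83 loci were higher and 34 lower. Ctsh was the 1 gene called lower after quantile normalization. Leaving out a library gave 4 to 6 genes called higher and 0 lower.

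The balance of all tested loci, 1488 higher and 683 lower (68.5% of calls higher), depended on scaling. It was 629 and 1648 under TPM, 1022 and 1417 under upper-quartile, 924 and 928 under quantile and 1365 and 975 under median-of-ratios scaling. Leaving out a library gave 746 to 1641 higher and 273 to 993 lower. Directions that turned, in the order median-of-ratios, upper-quartile, quantile and TPM, were those of Ctsh (-0.064, -0.21, -0.55, -0.40) and Ctsc (-0.0025, -0.15, -0.37, -0.34). Ctsl turned to -0.078 with upper-quartile and -0.24 with TPM. After quantile normalization Ctss was at -0.085, Cst3 at -0.15, Ctsa at -0.20 and Itgax at -0.34. Cd4, at -0.033 in the main fit, was called lower there (-0.60, limma adjusted p = 0.026). Cd74 and H2-Aa were at 0 there, which reflects their rank and not the size of a change. With TPM Ctsa was at -0.043, Stfa2l1 at -0.11, Gga3 at -0.036, Npepps at -0.051 and Itgax at -0.16. With a library left out the log2 fold change ran from -0.59 to 0.88 for Ctsl, -0.10 to 0.18 for Ctsh, -0.049 to 0.24 for Ctsc, -0.24 to 1.23 for Ctse, -0.96 to -0.15 for Ctso, -0.013 to 0.32 for Stfa2l1, -0.40 to 0.0060 for H2-DMa, -0.20 to 0.14 for Cd4 and -0.074 to 0.65 for Cd8a. For Hbb-b1 it ran from 1.48 to 3.50, for S100a9 from -0.15 to 3.06, for Cd79b from -0.98 to 0.015 and for Bst2 from -0.66 to 0.56. The causes were not tested.

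In the pathway lists the hydrolases had 6 higher and 10 lower loci after quantile normalization, 2 and 8 with TPM, 8 lower with upper-quartile and 5 lower with median-of-ratios rescaling, and 4 to 9 higher and 0 to 4 lower with a library left out. Other cathepsins had 1 lower with upper-quartile rescaling or TPM, and 0 to 1 in each direction with a library left out. The peptidase list had 1 lower with upper-quartile, quantile or TPM scaling and 1 to 2 higher with a library left out. The MiT/TFE list had 1 higher with the stricter filter or upper-quartile rescaling, 0 with TPM and 1 to 2 with a library left out. The ratio to Cst3 changed by 0.75 on the log2 scale for Ctsb, or 0.76 with a pseudocount of 0.1 or 0.01, and with a library left out it ran from -0.17 to 0.21 for Ctss and from -0.96 to 0.38 for Ctsl.

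Same-numbered libraries deviated together with a correlation of 0.052 over 11020 loci and share only a number. With the replicate number as a block 5 of the 10 genes were higher and 0 lower, as without it, the peptidase list had 2 higher in place of 1 (Tpp2 gained), the MiT/TFE list 3 in place of 2 (Tfeb gained), the H2-Ab1 and S100a9 calls were lost, and the loci called were 1684 higher and 620 lower. Depth is unknown, and 2 libraries per group limit the precision of every value.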
